A study of Mus musculus with 10 samples.

Results

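Marrow stromal cells that had regrown in transplanted mouse femurs were compared with marrow stroma at steady state. The comparison used 7 of the 10 RNA sequencing libraries of the study, chosen by their labels: 4 graft BM-MSC libraries and 3 BM-MSC libraries. BM-MSC stands for bone marrow mesenchymal stem cell, here cells sorted as CD51+CD200+ after blood cells (CD45, Ter119) and endothelial cells (CD31) had been gated out. Graft BM-MSCs came from femurs of transgenic Postn Cre-ER;tdTomato mice that had been placed in wild-type recipients, which then received tamoxifen, and were collected 5 months after transplantation. Only Tomato+ cells were taken, so that the group holds descendants of cells in which the Postn promoter had been active, a promoter used by periosteal cells but also by osteoblasts and other fibroblasts. BM-MSCs came from wild-type mice, labelled as host at steady state with no treatment, and in BM-MSC 2+4 RNA from a pair of mice was pooled. The other 3 libraries are P-SSCs, periosteal skeletal stem cells of wild-type mice at steady state. They entered the fit and served as a check here, and their P-SSC 2+5 also combined RNA of a pair of mice. The labels give the BM-MSC and P-SSC libraries as re-analyses of samples of another series, which the graft libraries are not. Transgene, tamoxifen, transplantation, the 5 months that followed it and the library batch described below all separate graft BM-MSCs from BM-MSCs. Their parts in any difference cannot be told apart. Age at collection is not labelled per library. The study's methods give an age range in weeks for its mice unless otherwise specified, and graft cells were collected 5 months after transplantation. Graft BM-MSCs would then have been older at collection than BM-MSCs, which is a further difference between the groups. The comparison addresses how far these Tomato+ graft cells share the expression profile of marrow stroma at steady state. The paper reads the Tomato label as a periosteal origin, which these libraries did not test. Postn reads were also present in BM-MSCs, as described below.

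Bone marrow stromal cells lie around sinusoids and make the factors that keep hematopoietic stem cells in place and alive, above all the chemokine Cxcl12 and the cytokine Kitl (stem cell factor). Most of them carry the leptin receptor Lepr and transcribe adipocyte genes such as Adipoq, and some feed the bone-forming osteoblasts. Periosteal stem cells form bone and cartilage, and make little of these niche factors at rest. A stromal cell from either place can therefore be described by how much of the niche, adipocyte, bone, cartilage and growth programmes it runs.

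The GC content of a transcript has to be weighed for the values below, because the libraries differed in the level of GC-rich transcripts. The cause of that difference was not tested. The first 30 coding bases of 4 genes that the results turn on show the range, with G and C in capitals (GENCODE M21 on GRCm38, + strand, 5′ to 3′). Of the checks described below, the upper pair rose in the graft and passed the GC check but failed the P-SSC 4 check. The lower pair rose and passed both, although the P-SSC 4 check does not reach GC-poor genes such as these.
Cebpb: atGCaCCGCCtGCtGGCCtGGGaCGCaGCa
Jund: atGGaaaCGCCCttCtatGGCGaGGaGGCG
C1galt1: atGGCCtCtaaatCttGGCtGaatttttta
mt-Nd2: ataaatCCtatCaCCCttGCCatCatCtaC
G and C make up 21 and 18 of the 30 bases in Cebpb and Jund, and 10 and 12 in C1galt1 and mt-Nd2. Over the whole coding sequence the share was 73.4% in Cebpb, 70.7% in Jund, 38.9% in C1galt1 and 35.8% in mt-Nd2.

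Between 15415421 and 25223295 reads per library fell on the genes in the table, so that 3 reads, taken as the smallest detectable amount, made 0.119 to 0.195 ppm of a library. Such floors cover counting error only. Genes with over 65% GC lay 1.69 to 2.80 log2 units above genes with 50 to 60% GC in the graft libraries, and below them in BM-MSCs, at −1.81 to −1.51. P-SSC 4 behaved like the graft libraries, at 1.52, and the other P-SSC libraries like BM-MSCs. The graft libraries also held fewer genes with a read, 9308 to 11674 against 12677 to 13341 in BM-MSCs. In each of these measures the 4 graft values lay apart from the 3 BM-MSC values, where the two-sided exact permutation test over 35 arrangements gave p = 0.0571, the smallest it allows. No label names a batch. Here the batch is a split of the libraries by these values: GC-rich genes above or below those with 50 to 60% GC. Because this batch coincides with the group, a rise in the graft was given 2 checks. In the GC check it had to be called again after the GC trend of each library was removed. In the P-SSC 4 check all grafts had to exceed P-SSC 4. This library, the one periosteal library with the same high level of GC-rich genes, also had to lie less than 1 log2 unit above the mean of P-SSC 1 and P-SSC 2+5. The second check rests on 1 library and is a description. It also does not reach GC-poor genes, where P-SSC 4 did not share the profile of the grafts. Genes under 42% GC lay 0.20 to 0.68 log2 units above those with 50 to 60% GC in the grafts. The same difference was −0.26 in P-SSC 4 and −0.50 to 0.17 in BM-MSCs.

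**Figure D1:**
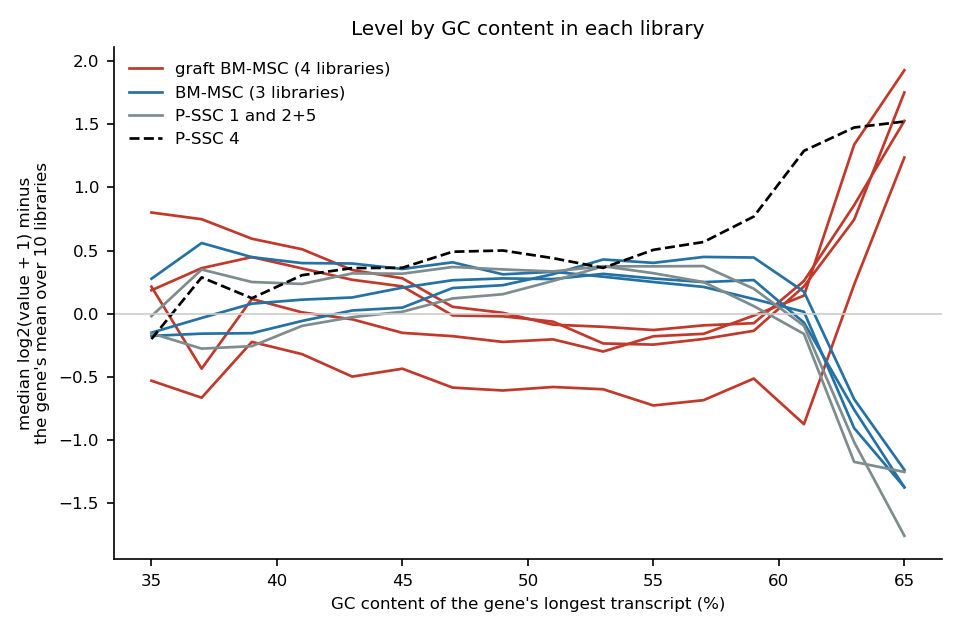
Median deviation of a gene from its mean over the 10 libraries (y axis, log2 units) against transcript GC content (x axis, percent), with 1 line per library coloured by group. The 4 graft libraries and P-SSC 4 climb at high GC content, while the BM-MSC libraries and the other P-SSC libraries fall.

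Values are normalised read counts (reads over the library's size factor), and changes are differences in log2(value + 1), graft BM-MSC minus BM-MSC, with their standard error (SE). The markers that define marrow stroma were present in every library of both groups. Cxcl12 measured 596085, 628564, 736781 and 560618 in the grafts 1 to 4, against 995477, 743661 and 846329 in BM-MSC 1, 2+4 and 3. Lepr measured 26389, 31398, 37374 and 22640 in the grafts and 45208, 24593 and 31792 in BM-MSCs, so that the groups overlapped (log2 change −0.18, SE 0.49). Adipoq measured 53102, 34596, 34855 and 76228 against 83452, 57828 and 47085, and the groups overlapped again. Pdgfra, a further marker of marrow stroma, measured 2576, 2161, 2689 and 2865 in the grafts against 4935, 3487 and 5733 in BM-MSCs. For Pdgfra, as for Cxcl12 and for Kitl described below, each graft lay below each BM-MSC library. Of the sort markers, Cd200 measured 2490 to 3277 in the grafts and 1886 to 3144 in BM-MSCs, and Itgav, which encodes CD51, measured 82.6 to 684 and 147 to 363.

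Markers of other cell types were counted as whole lists. The red cell list summed to 1821 to 28112 in the grafts and 64277 to 233885 in BM-MSCs, highest in BM-MSC 3, and 7 of 15 members tested were lower in the grafts and 0 higher. Hba-a1, a haemoglobin chain, measured 662, 9438, 2618 and 4596 in the grafts against 34503, 28921 and 99214. Leaving out BM-MSC 3 reduced the 7 red cell calls to 4. The monocyte and macrophage list summed to 3167 to 17662 against 7591 to 21164, with 2 of 16 members lower (C1qb and Aif1), and Adgre1, a surface marker of macrophages, was listed at 0 in every graft and at 90.9, 86.5 and 0.986 in BM-MSCs. Neutrophil genes summed to 7499 to 123519 against 35203 to 104528, with none of 20 called. Mpo was listed at 0 in every graft and in BM-MSC 2+4 and 3, and at 6804 in BM-MSC 1. S100a8 and S100a9 were highest in graft BM-MSC 3, at 40754 and 31393, against 3788 to 14563 and 5112 to 22536 in BM-MSCs. In the other grafts both lay below every BM-MSC library. Ptprc, which encodes CD45, measured 0, 0, 196 and 2.59 in the grafts and 16.7, 78.0 and 62.1 in BM-MSCs. Of 10 endothelial markers Tie1 and Emcn were lower, of 7 osteoclast markers Car2, of 10 Schwann and neural markers Mbp, and of 10 lymphoid, 5 megakaryocyte and 11 muscle markers none was called. Cdh5 (endothelium), Calcr (osteoclasts), Acta1 and Ckm (muscle) were listed at 0 in all 7 libraries. In bulk RNA, fewer cells of a type and less RNA per cell cannot be told apart, here and for every list below.

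Of 13644 genes tested, 1046 (7.67%) were called at an adjusted p under 0.05 by limma with Benjamini-Hochberg adjustment, 356 of them higher in the graft (2.61%) and 690 lower (5.06%). The counts of every list are to be read against these shares. Each graft lay above each BM-MSC library in 1407 of the genes tested and below in 2008, and 951 were listed at 0 in every graft. Leaving out 1 BM-MSC library left 128 higher calls without BM-MSC 1, 93 without BM-MSC 2+4 and 97 without BM-MSC 3, while 212 were made without graft BM-MSC 1, 211 without graft BM-MSC 4 and 760 without P-SSC 4. Lower calls numbered 412, 383 and 380 without BM-MSC 1, 2+4 and 3. Another 761 genes (5.58%) had a 95% confidence interval of the change that lay wholly within 2-fold, the measure used here for a shared level, and 1 of them was also called lower. Without BM-MSC 1, 2+4 or 3 there were 400, 483 and 438 such genes. The remaining 11838 genes (86.8%) were neither called nor bounded within 2-fold, so for most genes these libraries set no narrow limit on the difference. The median gene lay 0.53 log2 units lower in the graft (−0.53), and after the GC correction at −0.01. The correction gave 631 genes higher (4.62%) and 384 lower (2.81%). It left 354 genes within 2-fold, and only 65 genes were within 2-fold in both fits.

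Of the niche programme, 2 of the most abundant members had changes bounded within 2-fold. Cxcl12 had a log2 change of −0.45 with an interval of −0.99 to 0.09, although each graft lay below each BM-MSC library, and Vcam1, an adhesion molecule for blood progenitors, measured 32241, 34540, 32680 and 46954 against 52535, 36259 and 33975, with an interval of −0.87 to 0.57. Both bounds were lost without BM-MSC 2+4 or 3, without graft BM-MSC 4 and after centring on the median gene. That of Cxcl12 was also lost without P-SSC 2+5 or any other graft, with a filter at a mean of 100, in a fit of these 2 groups alone and under quantile normalization, where its change was 0.48. The niche list summed to 883294 to 1127568 in the grafts and 1147075 to 1539554 in BM-MSCs, again without overlap. Kitl measured 2323, 3376, 3764 and 3825 in the grafts against 6770, 4131 and 5739 in BM-MSCs, each graft below each BM-MSC, and its change of −0.74 (SE 0.31) was not called (limma adjusted p = 0.166). Angpt1, a ligand of the receptor Tie2, measured 300.0 to 1454 and 514 to 1368. Of 45 niche genes 40 were tested, with 2 higher, 2 lower, 4 within 2-fold (0 without BM-MSC 2+4 and 2 after median centring) and a median change of 0.18 beside the −0.53 of all genes. Il34 and Spp1, both ligands of receptors on myeloid cells, were the members lower, with changes of −1.17 and −1.05. Bmp6 and Il6 were the members higher, with changes of 2.04 and 3.66, and neither passed the P-SSC 4 check. Without any one of the BM-MSC libraries neither rise was called (limma adjusted p 0.0563, 0.0815 and 0.0914 for Bmp6 and 0.113, 0.109 and 0.0566 for Il6, without BM-MSC 1, 2+4 and 3), and the falls of Il34 (0.0857 and 0.139) and Spp1 (0.127 and 0.101) were lost without BM-MSC 1 and 2+4. Il6 also lost its call without P-SSC 1, P-SSC 2+5 or graft BM-MSC 2, 3 or 4 (0.0513 to 0.0624), Il34 without graft BM-MSC 1 or 4 (0.0614 and 0.0507), and Spp1 without any one graft (0.0511 to 0.0586).

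**Figure D2:**
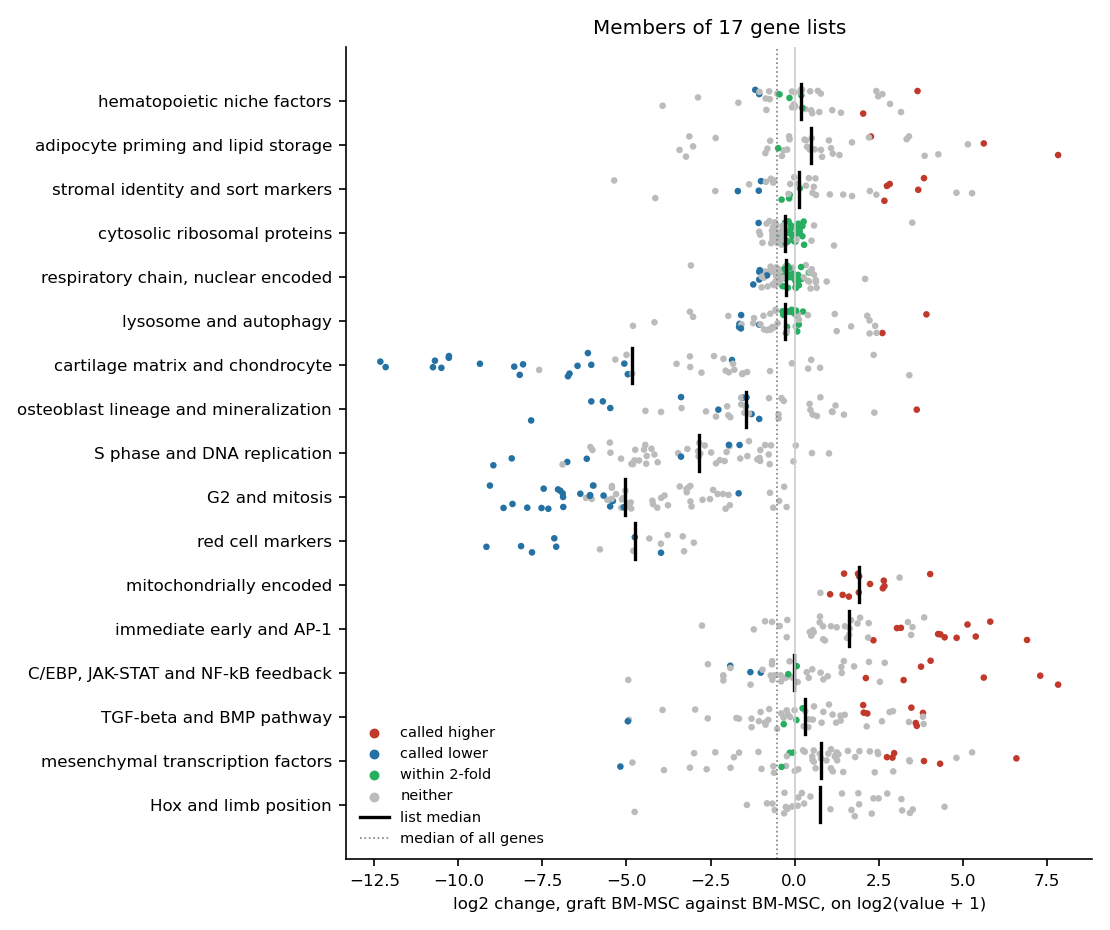
Log2 change of each tested member (1 point per gene, x axis) for selected gene lists (y axis), coloured by whether the gene was called higher, called lower, within 2-fold or none of these. Cartilage and mitosis members reach changes below −5, mitochondrially encoded genes lie above 0, and ribosomal proteins crowd around 0.

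The adipocyte programme of marrow stroma was likewise present in the graft. Its list summed to 168149 to 279965 in the grafts and 141738 to 229797 in BM-MSCs. Of 36 genes tested, 3 were higher, 0 lower and 1 within 2-fold, with a median change of 0.48. Lpl, which releases fatty acids from lipoproteins, measured 60477, 21566, 41743 and 72577 against 44781, 31346 and 33966, and the groups overlapped. The members called higher were Agpat2, Cebpd and Cebpb, and all of them failed the P-SSC 4 check. The call of Agpat2 was lost without BM-MSC 1, 2+4 or 3 (limma adjusted p 0.0687, 0.055 and 0.0998) and without graft BM-MSC 1 (0.0516). That of Cebpd was lost without BM-MSC 1, 2+4 or 3 (0.0806, 0.0935 and 0.0744) or graft BM-MSC 3 (0.0531), and its change of 5.63 turned to −0.34 with the batch as a term in the fit. The 3 rises of the list fell to 1 without BM-MSC 1, 2+4 or 3.

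Some lists of genes that nearly every cell uses had many members bounded within 2-fold. Of 81 cytosolic ribosomal proteins tested 39 lay within 2-fold, as did 30 of 75 nuclear-encoded respiratory chain genes and 14 of 54 lysosome and autophagy genes, beside 5.58% of all genes. Rpl13, a protein of the large ribosomal subunit, measured 12915, 15835, 14071 and 9837 in the grafts and 11300, 17923 and 17916 in BM-MSCs. Cox4i1, a subunit of cytochrome oxidase, measured 9878, 10126, 8093 and 8794 against 8668, 12530 and 10828. Ctsb, a lysosomal protease, measured 32950, 36307, 25986 and 28147 against 37310, 40646 and 30558. For each of these genes the groups overlapped. Ribosomal proteins had a median change of −0.29, which the GC correction turned to 0.30, so no direction is given for them. Counts within 2-fold followed the scaling, with 5 ribosomal, 2 respiratory and 5 lysosome and autophagy genes after centring on the median gene. There were 54 and 36 ribosomal and respiratory genes after quantile normalization, and 7 and 7 after GC correction. Leaving out BM-MSC 1 gave 17 and 15. The lower calls were Rpl4 among ribosomal proteins and Ndufv1, Ndufs3, Atp5b, Uqcrc1 and Atp5a1 in the respiratory chain, with changes between −1.23 (Ndufv1) and −0.82 (Atp5a1). Ndufv1 and Atp5b were called in every left-out fit. Rpl4 lost its call in 8 of the 10 fits (limma adjusted p 0.0536 to 0.164, all but those without P-SSC 2+5 and P-SSC 4) and Ndufs3 in 7 (0.0688 to 0.17, all but those without P-SSC 2+5, P-SSC 4 and graft BM-MSC 4). Uqcrc1 lost it without BM-MSC 2+4 or 3 (0.0857 and 0.094), and Atp5a1 without BM-MSC 1, 2+4 or 3 (0.0749, 0.0782 and 0.086). The 5 respiratory falls were 3, 2 and 2 without BM-MSC 1, 2+4 and 3, 9 without P-SSC 4 and 0 after GC correction.

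The most abundant genes bounded within 2-fold, next to Cxcl12 and Vcam1, were Rn18s-rs5, Fth1, Bgn, Fbln5, Ctsb, Hspa5, P4hb, Eef1a1, Olfml3 and Fstl1. They encode a ribosomal RNA repeat, an iron store, matrix proteins, a chaperone, an enzyme of collagen folding and a translation factor. Bgn, a small matrix proteoglycan, measured 80072, 58207, 67558 and 97230 in the grafts against 62645, 73228 and 54088 in BM-MSCs. Fbln5, an elastic fibre protein, measured 56545, 37958, 46044 and 68880 against 69492, 58209 and 46051. In both the groups overlapped. In Fth1, Hspa5, P4hb and Eef1a1 each graft lay below each BM-MSC library. In the GC-corrected fit Bgn (interval 0.31 to 1.41), Ctsb (−0.48 to 1.19) and Rn18s-rs5 were not within 2-fold. P4hb was the gene that was also called lower (log2 change −0.58, limma adjusted p = 0.0347), a call that was lost without any one of BM-MSC 1, 2+4 and 3 (0.113, 0.115 and 0.0892), P-SSC 1 (0.062), graft BM-MSC 2 (0.0774) or graft BM-MSC 3 (0.0669).

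The clearest gap in the graft was cartilage matrix. Of 43 cartilage genes tested 19 were lower (5.06% of all genes were), none was higher, and the median change was −4.82. The GC correction also called 19 lower, and 19 were listed at 0 in every graft, not all of them called. The list summed to 9203 to 21739 in the grafts and 71715 to 133176 in BM-MSCs. The count was 15 to 20 when any one library was left out.

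Col9a3 and Col9a1, chains of the collagen that coats cartilage fibrils, were listed at 0 in all grafts. Col9a3 measured 6535, 6177 and 2389 in BM-MSCs, which puts the graft at least 1666-fold lower, against a floor of 3 reads per library. Col9a1 measured 3610, 2118 and 400.4 and was at least 676-fold lower. Col9a2 had 25.4 in graft BM-MSC 1 and 0 in the other grafts, against 4472, 4651 and 1085. Acan, the large proteoglycan that holds water in cartilage, was listed at 0 in the grafts and measured 1252, 1475 and 1040 in BM-MSCs, at least 416-fold lower. Matn3, a linker of the cartilage matrix, measured 2840, 1648 and 975 in BM-MSCs only, and Cnmd, an inhibitor of vessel growth, 2952, 2323 and 753, at least 603-fold and 665-fold lower in the graft. Chad, which binds chondrocytes to their matrix, measured 2350, 4116 and 1810 in BM-MSCs and 244 in graft BM-MSC 2, with 0 in the other grafts. Col2a1, the main cartilage collagen, measured 791, 0, 1343 and 3566 in the grafts and 54646, 66401 and 30631 in BM-MSCs. No graft value reached a BM-MSC value, but the spread among grafts was wide and the change of −7.60 (SE 2.30) was not called (limma adjusted p = 0.0753). Sox9, the transcription factor of chondrocytes, went the other way in value, with 114, 656, 933 and 318 in the grafts against 65.8, 23.2 and 28.6, also not called (adjusted p = 0.0946). Comp, a cartilage and tendon glycoprotein, measured 5397 to 10452 in the grafts and 1724 to 7286 in BM-MSCs, and the groups overlapped.

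The largest of the 12 largest falls was that of A2m, a secreted protease trap that the list also holds. It was listed at 0 in every graft and measured 5372, 4564 and 5459 in BM-MSCs, which is at least 1699-fold lower (log2 change −12.32, SE 1.20, limma adjusted p = 0.00123). The other falls among the 12 largest were Postn, Slc38a5, Slc4a1 and Gfi1b. Postn, the matrix gene whose promoter drove the Cre, measured 0, 0, 0 and 235 in the grafts, 5041, 4579 and 3757 in BM-MSCs and 16558 to 24829 in P-SSCs. Slc4a1, the anion exchanger of red cells, and Gfi1b, a transcription factor of red cell and platelet precursors, were listed at 0 in the grafts and were highest in BM-MSC 3, at 5409 and 1432. Slc38a5, a glutamine transporter, was also listed at 0 in the grafts and highest in BM-MSC 3, at 2329. BM-MSC 3 is the library with the highest red cell sum, and the part of red cells in these 3 falls was not tested. All 12 falls were called in each of the 10 fits that left out 1 library, 9 by edgeR and 11 by DESeq2.

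Bone matrix genes fell as well, from high levels and without reaching 0. Col1a1, the main chain of bone collagen, measured 14762, 9531, 10399 and 33746 in the grafts and 373972, 1005119 and 786064 in BM-MSCs, so that log2(value + 1) changed by −5.48 (SE 0.47, limma adjusted p = 0.000799). Col1a2, its partner chain, measured 70446, 37626, 60100 and 103679 against 467950, 829452 and 747895, a change of −3.38 (SE 0.33). Each graft lay below each BM-MSC library for both chains, and Col1a1 fell further than Col1a2 in value. Ibsp, a mineral-binding protein of bone, measured 31590, 40535, 60194 and 16821 against 170997, 175274 and 142931, a change of −2.27. Serpinh1, the collagen chaperone, changed by −1.87 and Tnc, a matrix glycoprotein, by −2.17, and all of these falls held when any one library was left out.

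In the osteoblast list 11 of 40 genes tested were lower and 1 higher, with a median change of −1.44. Besides Col1a1, Col1a2 and Ibsp, the lower members were Col22a1, Col11a2, Smpd3, Sparc, Alpl, Tnfrsf19, Dlx5 and Spp1. Alpl, the phosphatase needed for mineral, measured 11924, 11904, 5178 and 5790 against 18840, 28354 and 19943, a change of −1.45 with no overlap, and lost its call without BM-MSC 1, 2+4 or 3 (limma adjusted p 0.0694, 0.13 and 0.0859) or graft BM-MSC 3 or 4 (0.0556 and 0.0599). The count of 11 fell to 6 without BM-MSC 1, 5 without BM-MSC 2+4 and 6 without BM-MSC 3, and to 5 with the GC correction. Bmp2 was the member higher, with a change of 3.63, and failed the P-SSC 4 check. Its call was lost without BM-MSC 1, 2+4 or 3 (limma adjusted p 0.0753, 0.122 and 0.129), P-SSC 2+5 (0.051) or graft BM-MSC 1, 3 or 4 (0.0808, 0.065 and 0.054). Regulators of the lineage differed in value among themselves. Dlx5, a homeobox factor of osteoblasts, was called lower (change −1.28), a call lost without BM-MSC 1, 2+4 or 3 (limma adjusted p 0.0942, 0.183 and 0.131), P-SSC 1 (0.0573) or graft BM-MSC 2 or 4 (0.058 and 0.0702). Runx2, the first transcription factor of osteoblasts, measured 1868, 823, 1676 and 977 in the grafts and 539.9, 419.7 and 697 in BM-MSCs. Sp7, which acts after Runx2, measured 1495, 316, 1190 and 731 against 1888, 2663 and 2287. Each graft lay above each BM-MSC library for Runx2 and below each for Sp7, and neither was called (limma adjusted p = 0.135 and 0.143). Bglap, the osteocalcin gene of mature osteoblasts, measured 10983, 10529, 4013 and 29627 against 19562, 52303 and 66165, and the groups overlapped.

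Among 72 fibrous collagens and glycoproteins 9 were lower (12.5%) and 4 higher (5.56%), beside 5.06 and 2.61% of all genes. Without BM-MSC 2+4 the numbers were 4 and 0, without BM-MSC 1 and 3 the rises were 2 and 0, without graft BM-MSC 1 they were 2, and without P-SSC 4 there were 8. Plod1, an enzyme of collagen crosslinking, measured 1517 to 2109 in the grafts and 3966 to 5007 in BM-MSCs, a change of −1.33 that every fit without 1 library called. Of 15 small leucine-rich proteoglycans Chad, Epyc and Dcn were lower and 3 lay within 2-fold. In the contractile and pericyte list 3 of 27 were lower (11.1%). Among them was Cspg4 (NG2, a pericyte surface proteoglycan), with 0, 0, 40.3 and 0 in the grafts against 681, 1206 and 653. The other matrix lists had 2 higher and 3 lower of 44 basement membrane and integrin genes (4.55 and 6.82%), 2 and 3 of 53 proteases and inhibitors (3.77 and 5.66%), and 2 and 1 of 36 adventitial and periosteal fibroblast genes (5.56 and 2.78%). Of 23 tendon and ligament genes 3 were higher (13.04%, beside 2.61% of all genes) and 0 lower, and the 3 fell to 1 without BM-MSC 1, 2+4 or 3.

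Genes of cell division were also lower in the graft. Of 63 G2 and mitosis genes tested 21 were lower (33.3%, beside 5.06% of all genes) and none higher, with a median change of −5.03. In this list 19 members were listed at 0 in every graft, as were 951 of the 13644 genes tested. Plk1, a kinase that drives mitosis, was listed at 0 in the grafts and measured 306, 474 and 1045 in BM-MSCs, at least 201-fold lower. Mki67, the proliferation marker Ki-67, was listed at 0 in the grafts and measured 51.2, 86.5 and 369.9, at least 56.0-fold lower. Bub1b, a part of the spindle checkpoint, was also listed at 0 and measured 354, 200.4 and 919. Every graft thus lay below every BM-MSC for these genes, and BM-MSC 3 was the highest.

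Of 53 S phase and DNA replication genes 7 were lower (13.2%, beside 5.06% of all genes), 0 were higher and the median change was −2.86. Cdc6, a loader of replication origins, was listed at 0 in the grafts and measured 207, 296 and 640.1, at least 126-fold lower. Replication genes with other uses kept a signal in the grafts: Pcna, the sliding clamp, measured 727, 868, 516 and 791 against 1123, 1368 and 2059, each graft below each BM-MSC, but was not called (limma adjusted p = 0.105). The S phase list summed to 11793 to 13663 in the grafts and 22961 to 55463 in BM-MSCs, and the G2 and mitosis list to 6847 to 8412 and 15088 to 36588. The highest value of both sums was in BM-MSC 3, which also had the highest red cell sum (233885), and the part of red cell precursors in these reads was not tested. Without BM-MSC 3 the calls were 17 for G2 and mitosis and 4 for S phase, and the latter were 12 without graft BM-MSC 2 and 13 without graft BM-MSC 4.

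**Figure D3:**
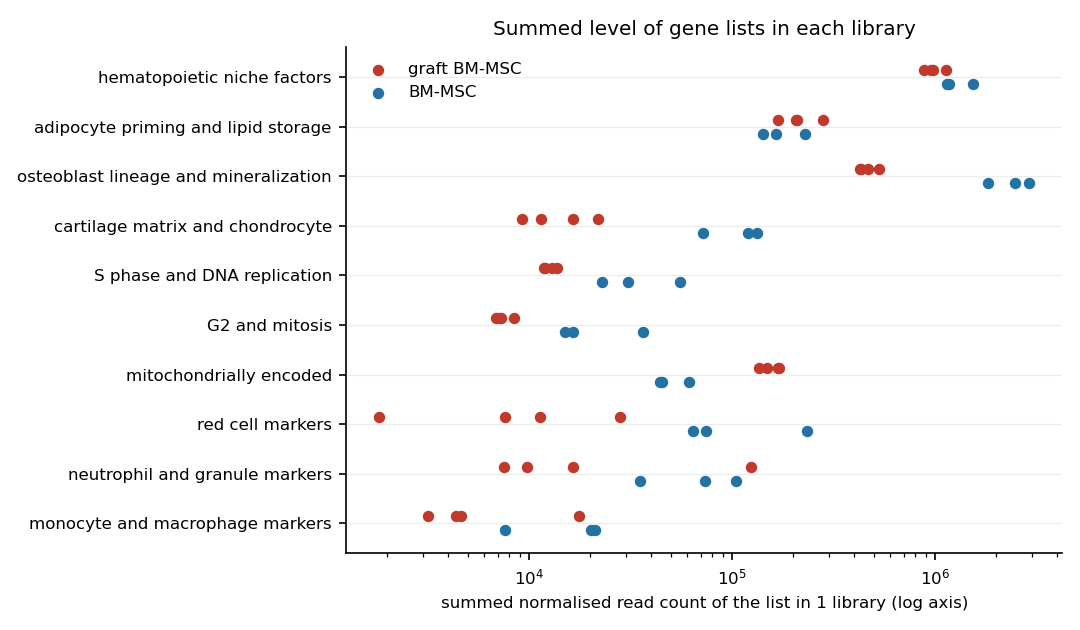
Summed normalised read count of a gene list (x axis, log scale) in each library, with 1 point per library coloured by group and 1 row per list. Cartilage, osteoblast, red cell and cell cycle sums of the 4 grafts lie left of the 3 BM-MSC libraries, and the mitochondrially encoded sum lies right of them.

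A gene listed at 0 in all grafts was common among the falls: 292 of the 690 lower genes were at 0 in every graft, and 274 had a read in all grafts. In all, 44 genes were at 0 in every graft and at 100 or more in every BM-MSC library, and 0 genes showed the reverse. Lower genes had a median GC content of 51.7% beside 49.7% of all genes tested, and the GC-corrected fit called 378 of them. P-SSC 4 lay at least 1 log2 unit below the other P-SSC libraries for 15.4% of them, against 13.3% of all genes. The GC correction lowered the count of falls to 384, and a fit with the batch as a term to 27, of which 16 were among the 690. The part of the batch in the falls cannot be told apart from that of the graft.

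Of the 356 genes called higher, 269 (75.6%) were also at least 1 log2 unit higher in P-SSC 4 than in the other P-SSC libraries, against 29.7% of all genes tested, and the median of that excess was 2.46 log2 units for raised genes and 0.00 for all. Genes with at least 60% GC were called higher in 46 of 549 cases (8.38%), beside 1.93% at 45 to 50% GC. The GC check passed 334 of the 356, the P-SSC 4 check 71, and both passed 62, which is 0.454% of the genes tested. Of those 62, 26 had under 45% GC and 2 had 60% or more, with a median of 47.5%. Under 45% GC lay 94 of the 356 genes called higher and 3462 of the 13644 genes tested. Since the P-SSC 4 check does not reach GC-poor genes, passing it does not separate batch from graft there. Without BM-MSC 1, 2+4 or 3 the number that passed was 24, 23 and 24, and 24 genes were called in every fit that left out 1 library.

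**Figure D4:**
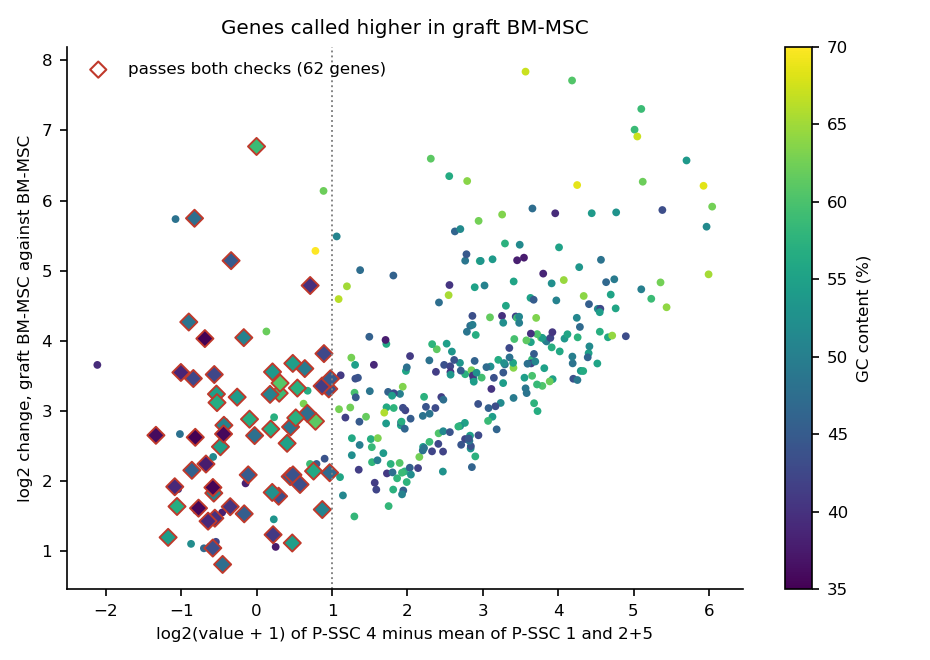
Log2 change of each gene called higher in the graft (y axis) against the excess of P-SSC 4 over P-SSC 1 and 2+5 (x axis, log2 units), with points coloured by GC content in percent. Most of the 356 genes lie right of the 1 log2 unit limit, and the 62 that pass both checks lie left of it.

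Among the 12 largest rises that passed both checks, 5 were called in every fit that left out 1 library: C1galt1, Id4, Pmepa1, Smad4 and Malat1. C1galt1, which starts the main class of O-linked sugar chains, measured 441, 457, 352 and 141 in the grafts and 5.22, 12.7 and 16.8 in BM-MSCs, a change of 4.79 (SE 0.86, limma adjusted p = 0.00970). Id4, a partner that blocks helix-loop-helix transcription factors, measured 2593, 1606, 2164 and 1617 against 159, 134 and 122 (3.82, SE 0.61, adjusted p = 0.00584). Malat1, a long nuclear RNA, measured 17134, 17043, 12730 and 15890 against 2006, 992 and 1257 (3.52, SE 0.28, adjusted p = 0.000609). Each graft exceeded every BM-MSC library by far in these genes, and P-SSC 4 lay at 116, 14.5 and 946. At the 39.8% GC of C1galt1 the P-SSC 4 check cannot separate batch from graft.

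Pmepa1 and Smad4 both belong to signalling by TGF-beta. Pmepa1, a target of the pathway that restrains it, measured 2941, 2916, 2508 and 3080 in the grafts against 182, 295 and 203 in BM-MSCs and 381 to 608 in P-SSCs (log2 change 3.68, SE 0.31, limma adjusted p = 0.000784). Smad4, the mediator shared by the TGF-beta and BMP arms, measured 2369, 982, 2583 and 2728 against 283, 116 and 135, with 177 to 329 in P-SSCs (3.61, SE 0.50, adjusted p = 0.00301). Graft BM-MSC 2 was the lowest graft for Smad4 and still above every other group's library.

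The other 7 of these rises lost their call when some libraries were left out. Dio3os, antisense to the deiodinase gene Dio3, measured 248, 207, 222 and 489 in the grafts and 0, 0 and 14.8 in BM-MSCs, and was listed at 0 in all P-SSCs. Since the strand setting of the counting is not settled here, its reads cannot be told from those of Dio3. The call was lost without BM-MSC 1 (limma adjusted p = 0.0515) or 2+4 (0.055). Slc10a1, a bile acid transporter, measured 51.4, 697, 110 and 97.5 against 1.04, 0 and 7.89, a call lost without the same libraries (0.0886 and 0.112). Mark1, a kinase of microtubule-binding proteins, measured 1694, 718, 2224 and 1701 against 129.5, 53.8 and 96.7, lost without BM-MSC 2+4 (0.0537). In these genes no graft value overlapped a BM-MSC value. The mitochondrial gene mt-Nd3 is described below. Marveld1 lost its call without BM-MSC 1 (0.0942), 2+4 (0.0732) or graft BM-MSC 1, 3 or 4 (0.0587, 0.0546 and 0.0556). Cul3, a ubiquitin ligase scaffold, and Ubn2 were called in only 2 of the 10 left-out fits, with adjusted p up to 0.172 (Cul3) and 0.144 (Ubn2) without BM-MSC 2+4 and BM-MSC 1. For Cul3 the fits without BM-MSC 1, 3, P-SSC 1, P-SSC 2+5 and graft BM-MSC 1, 3 and 4 gave 0.086, 0.0997, 0.0709, 0.0605, 0.0954, 0.0932 and 0.0866. For Ubn2 those without BM-MSC 2+4, 3, P-SSC 1, P-SSC 2+5 and graft BM-MSC 1, 3 and 4 gave 0.0627, 0.128, 0.0731, 0.0644, 0.0684, 0.084 and 0.0762. At the 38.5% GC of Cul3 the P-SSC 4 check cannot separate batch from graft. Of the 12 rises, edgeR called 8 and DESeq2 12.

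**Figure D5:**
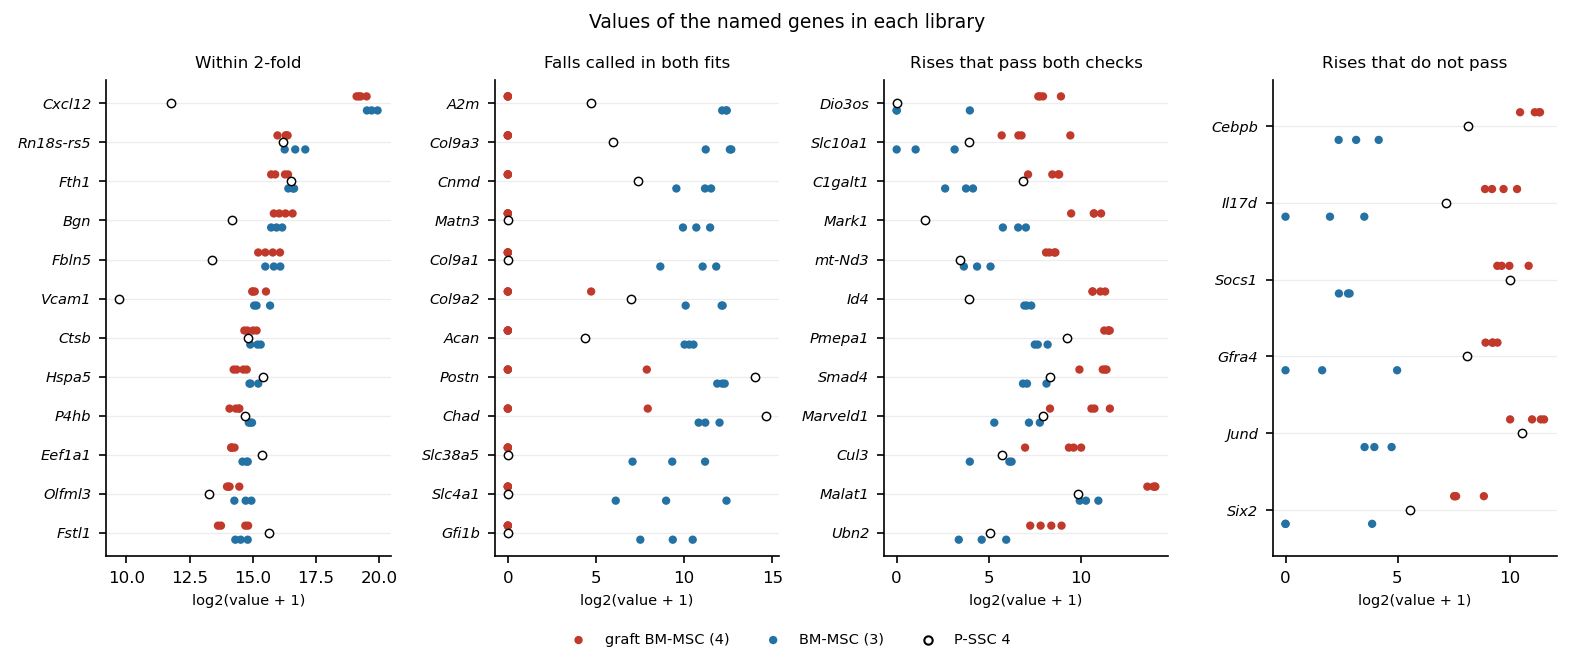
Log2(value + 1) (x axis) of the 12 most abundant genes within 2-fold, the 12 largest falls, the 12 largest rises that pass both checks and the 6 largest rises that fail one (rows), with 4 graft, 3 BM-MSC and the P-SSC 4 library as points. The groups interleave or adjoin in the first panel and stand apart in the other panels, and in the last one P-SSC 4 lies above every BM-MSC library.

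Transcripts of the mitochondrial genome formed the one list that rose nearly as a whole and passed the checks. These genes encode core subunits of the respiratory chain and the ribosomal RNAs of the organelle, and have a low GC content (median 35.9%). At low GC content P-SSC 4 did not share the profile of the grafts, so for these genes its check cannot separate batch from graft. Of 14 tested 12 were higher, 10 passed both checks and the median change was 1.92. Every graft exceeded every BM-MSC library in all 14, as in 1407 of the 13644 genes tested. Without BM-MSC 2+4 or BM-MSC 3 the count of 12 fell to 7. They took 0.88 to 1.18% of the reads in the grafts, 0.22 to 0.34% in BM-MSCs and 0.18% in P-SSC 4 (exact permutation p = 0.0571). mt-Nd2, a subunit of complex I, measured 7232, 8135, 5649 and 7022 against 1380, 988 and 947 (log2 change 2.67, SE 0.24, limma adjusted p = 0.000956). mt-Rnr2, the large ribosomal RNA, measured 27137, 28783, 23593 and 23437 against 7307, 6155 and 7053 (1.91, SE 0.19). mt-Cytb, of complex III, measured 53428, 39101, 42519 and 53730 against 20418, 16333 and 15645 (1.43, SE 0.21). The rises thus ran from under 3-fold upwards, and P-SSC 4 lay below the lowest graft for each, at 948, 9351 and 8971. mt-Nd3 measured 397, 381, 278 and 316 against 33.4, 11.6 and 19.7, and lost its call without BM-MSC 2+4 (adjusted p = 0.0861) or BM-MSC 3 (0.0704). mt-Nd5 and mt-Co2 did not pass the GC check, and mt-Rnr1 (change 0.77) and mt-Atp8 (3.13) were not called. The nuclear-encoded subunits of the same chain did not rise with them, with 0 of 75 higher.

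Growth factor signalling held 2 more rises that passed both checks and were called in every left-out fit. Spry1, an inhibitor induced by receptor tyrosine kinases, measured 11940, 13973, 10828 and 16424 in the grafts, 1796, 1708 and 1829 in BM-MSCs and 245 to 265 in P-SSCs, a change of 2.88 (SE 0.21, limma adjusted p = 0.000514). Irs2, an adaptor of insulin and IGF receptors, measured 851, 1639, 809 and 1800.4 against 92.9, 282 and 96.7, a change of 3.12 (SE 0.51). Every graft exceeded every BM-MSC in both. Of 40 genes of the FGF, PDGF and IGF axis, 5 were higher and 2 lower (Igfbp5 and Pdgfrb), and the 5 fell to 2 without BM-MSC 2+4 or 3 and to 3 without graft BM-MSC 1 or 3. The 2 falls became 0 without BM-MSC 1, 2+4 or 3, without graft BM-MSC 1 and after GC correction. Of 53 genes of the TGF-beta and BMP pathway 7 were higher and 1 lower, with a median change of 0.32, and Smad4 and Id4 were the ones that passed both checks. The 7 fell to 3 without BM-MSC 1, 2+4 or 3 and to 4 without graft BM-MSC 1. Fst, a secreted trap for activin, measured 5987, 3617, 8057 and 9212 against 612, 463 and 649, a change of 3.47 called in every left-out fit. It failed the P-SSC 4 check by a small margin, with P-SSC 4 1.34 log2 units above the other P-SSC libraries.

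The largest rises that failed a check included GC-rich regulators. All those named here passed the GC check and failed the P-SSC 4 check. Cebpb, a transcription factor of adipocytes and of acute responses, measured 1416, 2232, 2549 and 2625 in the grafts and 4.18, 16.9 and 7.89 in BM-MSCs, a change of 7.84 (SE 0.98, limma adjusted p = 0.00203). Its transcript has 67.2% GC, its change fell to 5.29 after GC correction, and P-SSC 4 (282) exceeded the other P-SSC libraries (14.5 and 35.7) by 3.57 log2 units. Each graft was still above P-SSC 4. Jund, a subunit of the AP-1 transcription factor, measured 1041, 2976, 2694 and 2052 against 14.6, 10.55 and 25.6, with 1480 in P-SSC 4 and 31.2 and 61.1 in the other P-SSC libraries. Socs1, an inhibitor of cytokine signalling, measured 699, 1847, 801 and 1017 against 6.27, 4.22 and 5.92, with 1047 in P-SSC 4, inside the range of the grafts. Il17d, Gfra4 and Six2 had changes of 7.71, 7.01 and 6.60. The call of Gfra4 was lost without BM-MSC 1 (0.115), 2+4 (0.112), P-SSC 1 (0.0526) or any graft (0.0504 to 0.0614), and that of Six2, a transcription factor of mesenchymal progenitors, without BM-MSC 2+4 (0.084) or 3 (0.0801).

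Immediate early genes, which respond within minutes to growth factors and stress, showed the same pattern as a list. Of 43 tested 11 were higher and 0 lower, with a median change of 1.63, and only Nr4a3 of the 11 passed both checks. Egr1 measured 15279, 72136, 59784 and 61449 in the grafts, 878, 1083 and 1286 in BM-MSCs, and 36250 in P-SSC 4 against 4233 and 3222 in the other P-SSC libraries. Dusp1, a phosphatase of MAP kinases, measured 8026, 41686, 33156 and 30586 against 447, 426 and 406, with 20380 in P-SSC 4. For both genes P-SSC 4 lay above graft BM-MSC 1 and below the other grafts. Fos, the best known member, measured 26928, 161157, 101196 and 115274 against 20847, 29184 and 38402 and was not called (limma adjusted p = 0.09999). The count of 11 was 6 without BM-MSC 1, 7 without BM-MSC 2+4 and 7 without graft BM-MSC 4, and Nr4a3 was called in 1 of the 10 left-out fits, with adjusted p of 0.0525 to 0.152 in the other 9. Of 44 genes of C/EBP, JAK-STAT and NF-kB feedback 7 were higher, none of which passed both checks, and 3 were lower, among them Stat3, the main transducer of the IL-6 family, at 3005 to 3558 against 5828 to 6908 (−1.005, SE 0.17). The 7 fell to 3 without any one BM-MSC library. The 3 falls became 1 without any one BM-MSC library, P-SSC 1 or P-SSC 2+5, and 0 after GC correction.

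Some stromal regulators were called higher from a level already present in BM-MSCs. Runx1, a transcription factor of blood and stroma, measured 2504, 2596, 5194 and 2562 in the grafts and 459.5, 378 and 537 in BM-MSCs, with 151 in P-SSC 4. Foxc1, a factor that maintains the niche cells, measured 5795, 3242, 5476 and 4028 against 263, 392.3 and 294, with 128 in P-SSC 4 and 9.35 and 5.10 in the other P-SSC libraries. Its change of 3.85 turned to −0.17 with the batch as a term in the fit. Nfix measured 2639, 1043, 1770 and 2742 against 187, 383 and 227. For these 3 genes no graft value overlapped a BM-MSC value. Of 59 mesenchymal transcription factors 6 were higher and 1 lower, with a median change of 0.79 and none that passed both checks, and without BM-MSC 1, 2+4 or 3 the count of 6 fell to 2, 1 and 2. Nfix (change 2.91, SE 0.40, limma adjusted p = 0.00287) was called in every left-out fit, and each graft lay below P-SSC 4 (4349). Foxc1 lost its call without BM-MSC 1, 2+4 or 3 (0.0942, 0.0839 and 0.0964) or graft BM-MSC 1, 3 or 4 (0.0614, 0.0583 and 0.0508), and Runx1 without BM-MSC 1 (0.0516) or 2+4 (0.0645). Among 38 stromal identity genes 5 were higher (Runx1, Foxc1, Ly6a, Igfbp4 and Cxcl14), 3 lower (Eng, Igfbp5 and Pdgfrb) and 4 within 2-fold, and the 5 became 2, 1, 2, 3 and 8 without BM-MSC 1, 2+4, 3, graft BM-MSC 3 and P-SSC 4. The 3 falls became 0, 0 and 1 without BM-MSC 1, 2+4 and 3, and 0 after GC correction. Ly6a, the Sca-1 antigen, measured 699, 247, 980 and 682 against 63.7, 139 and 83.8, and 43887 to 96853 in P-SSCs (change 2.67, SE 0.49). Of 30 Hox and limb genes 0 were called, beside 2.61% higher and 5.06% lower of all genes, too few genes for a reading of positional identity. The list summed to 5518 to 8320 in the grafts and 4499 to 4976 in BM-MSCs, without overlap. Its median change was 0.77, beside −0.53 of all genes. Hoxa10 measured 442 to 909 in the grafts and 696 to 902 in BM-MSCs, and the groups overlapped.

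Most remaining lists had few calls, and their numbers are given against the 2.61% higher and 5.06% lower of all genes. In signalling, 2 genes were higher and 0 lower of 53 Wnt genes, 1 and 1 of 26 Notch genes, 0 and 0 of 13 Hedgehog genes, 2 and 2 of 35 nuclear hormone receptors, and 1 and 3 of 58 axon guidance genes. In immunity, 1 and 0 of 55 interferon genes, 0 and 3 of 30 antigen presentation genes, 3 and 2 of 41 chemokines and interleukins, and 1 and 3 of 27 complement genes were higher and lower. Ifitm2, an antiviral membrane protein, was the interferon gene higher, at 7224 to 9975 against 3148 to 4292, and it passed both checks, but lost its call without BM-MSC 1, 2+4 or 3 (limma adjusted p 0.111, 0.0837 and 0.138) or graft BM-MSC 1, 2 or 3 (0.0597, 0.0674 and 0.0685). In metabolism and stress, 0 and 5 of 34 glycolysis genes, 0 and 2 of 30 cholesterol genes, 1 and 2 of 51 antioxidant genes, 1 and 4 of 44 heat shock and folding genes, 2 and 3 of 37 hypoxia genes, and 2 and 5 of 54 lysosome genes were called. Eno1, a glycolytic enzyme, measured 5123 to 8386 in the grafts and 15563 to 18380 in BM-MSCs (−1.37, SE 0.22, adjusted p = 0.00600), the glycolysis fall that held in every left-out fit. The last lists gave 3 and 2 of 41 p53 targets and arrest genes, 1 and 0 of 42 apoptosis genes, 2 and 2 of 21 imprinted genes, 0 and 6 of 45 iron and serpin genes, and 2 and 3 of 43 adhesion and junction genes. Many of these small counts turned on single libraries. Without BM-MSC 2+4 the falls were 1 in glycolysis, 0 in antigen presentation, cholesterol, antioxidant and hypoxia genes, 1 in complement and axon guidance, 2 in heat shock and lysosome genes, and 3 in iron and serpin genes, and the rises were 0 in Wnt genes and p53 targets and 1 in chemokines. The glycolysis falls were also 1 without BM-MSC 1 or 3. Without P-SSC 4 the rises were 9 in Wnt genes, 6 in lysosome genes and 5 in heat shock genes, and the falls in antigen presentation were 6. After GC correction 0 glycolysis, antigen presentation and lysosome genes were lower and 10 Wnt genes were higher.

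The batch was also entered in the fit as a term, which rests the separation of batch and graft on P-SSC 4 alone. That fit called 13 genes higher and 27 lower, of which 9 and 16 had been called in the same direction without the term. The shared rises were Ifitm2, Malat1, Pmepa1, Spry1, mt-Cytb, mt-Nd1, mt-Nd2, mt-Nd4 and mt-Rnr2, and all of them had passed both checks. That overlap is no independent support for the P-SSC 4 check. The batch term equals, for each gene, the excess of P-SSC 4 over the mean of the other P-SSC libraries, which that check limits. A low value in P-SSC 4 thus favours both passing the check and keeping the rise. For Malat1 the excess was −0.56 log2 units, and its change was 3.52 without the term. With the GC correction and the term together, 0 genes passed the checks. With the term, the log2 change was 4.08 for Malat1, 3.20 for Pmepa1, 2.98 for Spry1 and 3.11 for mt-Nd2. Among the 16 lower genes were A2m (−15.93), Bub1b (−13.48), Snorc, a cartilage proteoglycan (−12.03), and Lars2, the mitochondrial leucine tRNA synthetase (−4.69). Lars2 measured 4850, 7105, 5030 and 3554 in the grafts and 61079, 73543 and 77562 in BM-MSCs, with 53066 to 117657 in P-SSCs. Changes of genes at 0 in all grafts are set partly by the pseudocount of 1, so their size is no measure of a fold.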

How the data were processed

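RNA of sorted CD51+CD200+ cells was sequenced in 10 libraries (4 graft BM-MSC, 3 BM-MSC, 3 P-SSC). The authors selected poly-A RNA, mapped reads with STAR, counted them per gene and deposited a normalised signal value per gene and library, a read count divided by a size factor, for 15078 genes. The study's methods name GRCm38 and the submitters' processing notes GRCm39, with featureCounts (Subread 1.4.6) and DESeq2 1.26.0, so no coordinates are given. Values were whole multiples of a step per library, and reads were recovered for 100% of them (tolerance 0.01 read). Per the study's methods, no mouse contributed RNA to more than 1 replicate.

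Values were analysed as log2(value + 1) for the 13644 genes with a mean of at least 10 (1434 removed), with limma 3.58.1 in R 4.3.3: 1 mean per group over all 10 libraries, 7 residual degrees of freedom, variance trend, two-sided, Benjamini-Hochberg adjustment, threshold 0.05. Genes within 2-fold had a 95% confidence interval between −1 and 1. GC content is that of the longest GENCODE M21 transcript (13622 genes). Each library's deviation from the gene mean was smoothed over GC content by loess (span 0.3) and subtracted. A robust loess was chosen after a least-squares loess had left a median change of 0.24. edgeR 4.0.16 and DESeq2 1.42.0 were run on the recovered reads.

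The gene lists (52) and the comparison were chosen with earlier results of these data known. A member of the list of mesenchymal transcription factors is not reported here and was left out of its counts. Genes named were the 12 largest rises that passed both checks and 6 that failed one (mean of at least 100, groups not overlapping), the 12 largest falls called before and after GC correction, the 12 most abundant within 2-fold, and called members and up to 4 abundant others of each list described. Others were chosen after their values were seen: Sox9, Runx2, Sp7, Angpt1, Pcna, Lars2, Lpl and Nfix are examples. Lists are described by counts and medians. The steps were tested on simulated counts with 200 genes changed. Alternatives were other pseudocounts, filters, scalings, fits, tools, a batch term, a replicate block and leaving out each library.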

Additional observations from a re-analysis of the deposited data

Results flagged for a closer look

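Among 30 named genes tested for a value far from the others in the group of 4 grafts, the gap of the extreme library to its neighbour, as a share of the group's range on the log2 scale, exceeded Dixon's critical value for 4 samples in 3. Chance flags about 1 in 20 groups. Smad4 had a ratio of 0.862, with 982 in graft BM-MSC 2 below 2369, 2583 and 2728 in the others. Six2 had a ratio of 0.933, with 461 in graft BM-MSC 3 above 183, 195 and 187. Eef1a1 had a ratio of 0.831, with 19841 in graft BM-MSC 4 above 18376, 18303 and 18091.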

How the results depend on the processing

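Beside the 356 genes higher, 690 lower and 761 within 2-fold, the alternatives moved the counts as follows. A filter at a mean of 100 gave 399 lower, centring on the median 257 within 2-fold, quantile normalization 588 higher and 435 lower, and a fit of graft BM-MSC and BM-MSC alone 757 higher and 1239 within 2-fold. The GC correction gave 631 higher, 384 lower and 354 within 2-fold, and by the least-squares loess that was tried first, and replaced after its result was seen, 883, 353 and 218. The batch term gave 13, 27 and 117. edgeR gave 99 higher and 217 lower, DESeq2 918 higher, and an adjusted p under 0.01 60 and 245. Leaving out 1 library gave 93 (without BM-MSC 2+4) to 760 (without P-SSC 4) higher, 380 (without BM-MSC 3) to 832 (without graft BM-MSC 4) lower and 400 (without BM-MSC 1) to 1011 (without P-SSC 4) within 2-fold. Without graft BM-MSC 1 and 4, 212 and 211 were higher.

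The 62 rises that passed both checks became 41 with a mean of at least 100, 33 with edgeR, 15 at an adjusted p under 0.01, 0 with the batch term and its GC correction, and 334 with the GC check alone. They were 23 (without BM-MSC 2+4) to 79 (without P-SSC 4) when 1 library was left out, and 68 with the least-squares loess.

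With the replicate number of the titles as a block, limma called 1 gene higher and 2 lower, with 368 within 2-fold and 0 that passed both checks, and the block with GC correction gave 1, 2 and 311. That fit has 2 residual degrees of freedom. Libraries with the same number did not deviate together (correlations of 0.03 and 0.01), and graft and steady-state mice are different mice, so the numbers do not pair the samples.

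With the batch term the log2 change turned negative for Cebpd (−0.34), Cxcl14 (−0.84), Dag1 (−0.33), Foxc1 (−0.17), Igfbp7 (−0.63), Jun (−0.30), Lamp1 (−0.49), Mmp14 (−0.21) and Phlda3 (−0.52), all of which had been called higher. H2-D1 turned to 0.34 under quantile normalization and P4hb to 0.20 after GC correction. The causes of these moves were not tested. The share of genes at 0 in the grafts (22.6 to 38.3%) limits falls of low genes, which are bounds, and 3 BM-MSC libraries limit every call.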
